A study of Mus musculus with 6 samples.

Results

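The nuclear lamina is a meshwork of lamin filaments under the inner nuclear membrane, and the proteins described here build it, anchor it or tie chromatin to it. They were followed through 10 genes, chosen by name for these roles: Lmna, Lmnb1, Lmnb2, Lbr, Emd, Sun1, Sun2, Tmpo, Banf1 and Lemd3. All 10 were found among the 41254 gene symbols of the table, as 59 transcripts, and all 10 passed the filter on low counts. The RNA came from DN3a thymocytes of adult C57BL/6 mice, immature T cell precursors without CD4 and CD8 that rearrange the T cell receptor beta locus. The study title is concerned with how the amount of GATA3, a zinc finger transcription factor, bears on allelic exclusion at that locus, by which a T cell uses only one beta allele. The 3 wild-type libraries carry no transgene by their labels. The 3 others carry the transgene labelled Tg_Cd2_GATA3. Cd2 encodes a T cell surface protein whose control elements are widely used to drive transgenes in T cells, and the labels do not describe the construct further. Whether the libraries stem from different animals is not stated in the labels, and p-values therefore reflect library-to-library spread, which may in part be technical. Values of 3 libraries are always listed in the order of replicates 1, 2 and 3.

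Lamin B1 and lamin B2, from Lmnb1 and Lmnb2, are made in nearly all cells and stay bound to the membrane by a lipid tail. Lamin A and lamin C come from Lmna by alternative splicing and are typically scarce in undifferentiated and blood cells. LBR, the lamin B receptor, and emerin, LAP2 and MAN1, the LEM domain proteins from Emd, Tmpo and Lemd3, sit in the inner membrane, and BAF, from Banf1, bridges LEM domains and DNA. SUN1 and SUN2 span the inner membrane and bind nesprins in the perinuclear space, which in turn reach the cytoskeleton from the outer membrane. Chromatin held at the lamina is mostly silent, and inactive beta alleles have been found there.

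The libraries held 39022281 to 46985605 fragments assigned to transcripts. Gata3 itself lay at 38.2 to 49.1 CPM (fragments scaled to library size) in wild type and, with the transgene, at 53.6 to 61.6 CPM, without overlap, a log2 fold change of 0.41 ± 0.10 (SE) that did not pass the threshold (edgeR quasi-likelihood test, adjusted p = 0.17; called in 3 of 15 alternatives). The table does not separate transgene RNA from that of the endogenous gene. All 12 markers of early T cells and the DN3 stage were expressed, among them Ptcra and Rag1. Of 7 markers of later thymocytes, Cd4, Cd8a and Cd8b1 had wild-type means of 6.89, 8.19 and 8.97 CPM. Their transgenic means were lower, 3.71, 3.23 and 4.03 CPM. Cd28 and Cd5 had higher levels, with wild-type means of 61.7 and 10.6 CPM and transgenic means of 48.6 and 8.91 CPM. Cd2 and Trac lay below the others. Wild-type replicate 1 and transgenic replicate 3 held 18522 and 16840 fragments of Y-linked genes such as Uty and Ddx3y, against 16 to 26 in the others, so each group mixes libraries with and without Y-linked RNA. In bulk RNA, fewer cells with a transcript and less of it per cell cannot be told apart.

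The 10 genes spanned levels from among the highest in these cells to near the detection limit. Levels between genes are compared as FPKM (fragments scaled to transcript length and library size), summed over the transcripts of a gene. Lbr, the receptor that binds lamin B and heterochromatin protein 1, was highest, at 205.7, 219 and 210.2 FPKM in wild type and at 209.6, 214.5 and 209 FPKM in the transgenic libraries. Its wild-type mean was above that of 97.4% of the genes tested. Tmpo, which encodes the LAP2 proteins, followed at 161, 180.3 and 199 FPKM in wild type and at 147.5, 158 and 153 FPKM in transgenic libraries. Its range did not overlap that of Lbr in either group.

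Banf1 and Sun2 came next and overlapped each other in wild type. Banf1 stood at 113, 138 and 136 FPKM and Sun2 at 141, 112 and 122.7 FPKM in wild type. In transgenic libraries they did not overlap, with Banf1 at 104 to 114 FPKM and Sun2 at 130.1 to 150.5 FPKM, and Sun2 there overlapped Tmpo. Banf1 has short transcripts, for which FPKM is sensitive to fragment length.

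The B-type lamins were well expressed, while the A-type lamin gene was close to absent. Lmnb1 lay at 53.7, 63.6 and 63.1 FPKM in wild type, below Sun2 and above Emd. Lmnb2 lay at 33.6, 37.55 and 40.2 FPKM and could not be ordered against Emd, the emerin gene, at 32.2, 42.0 and 41.15 FPKM. Sun1 at 14.5 to 21.1 FPKM and Lemd3 at 9.11 to 10.3 FPKM were the next steps down, each without overlap with its neighbours in wild type. Lmna, the gene of lamins A and C, had only 64, 63 and 82 fragments in wild type and 79, 62 and 46 in the transgenic libraries. Its summed level was 1.05 ± 0.67 FPKM (SD, n = 3) in wild type and 0.94 ± 0.28 FPKM (SD, n = 3) in transgenic cells. Lmnb1 and Lmnb2 together exceeded Lmna by 56.6 to 164 times in wild type and by 73.0 to 127.5 times in transgenic libraries. The 2 ranges overlap (exact two-sided permutation test, p = 0.7).

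**Figure D1:**
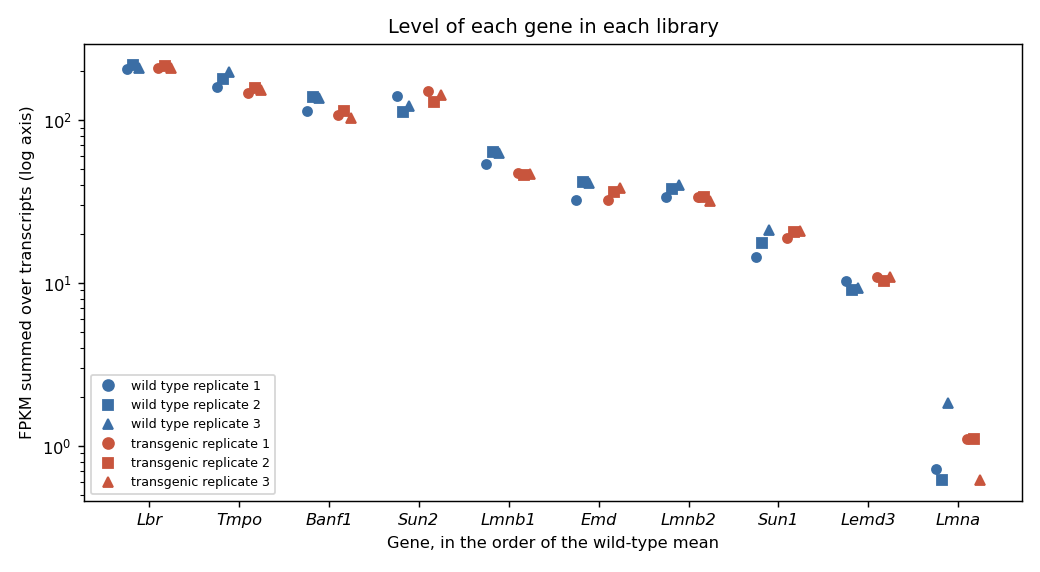
FPKM summed over transcripts (y axis, log scale) of the 10 genes in the 3 wild-type (blue) and 3 transgenic (red) libraries; each point is 1 library. Lbr lies near 210 FPKM in all 6 libraries, and Lmna between 0.62 and 1.83 FPKM.

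Lmna is abundant in stromal and many epithelial cells, so markers of those cells are given beside its level. Of 10 such markers, 7 averaged under 1 CPM. The fibroblast markers Col1a2 and Pdgfra had no fragments in any library, while Col1a1, another of them, was at 0.10 to 0.24 CPM in every library. Epcam, Pdgfrb and Pecam1 were expressed, and the summed level of the list was 246 to 260 CPM in the wild-type group and 274 to 289 CPM in the transgenic group. The summed level of 9 myeloid and dendritic markers was 22.5 to 27.8 CPM and 28.6 to 33.3 CPM. Of 6 B cell markers, 5 averaged under 1 CPM, Pax5 was at 0 in every library, and the list summed to 42.6 to 50.8 CPM in the wild-type group and 46.0 to 56.0 CPM in the transgenic group, nearly all of it Cd79b. The smallest p among stromal and epithelial markers were those of Pecam1 and Epcam, at log2 fold changes of 0.20 ± 0.10 and 0.07 ± 0.08 (SE), and among myeloid ones those of Cd74 and Lyz2, at 1.001 ± 0.36 and 0.19 ± 0.11 (SE). The 6 erythroid markers, of which Hbb-bs and Hbb-bt had the smallest p, summed to 0.71 to 3.99 CPM and 3.12 to 7.39 CPM. The part of such cells in the Lmna level was not tested.

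The starts of the genes whose levels are compared below are shown with the motifs that a search found in them. Capitals mark matches on either strand to CCAAT, to the cell cycle element TTTGAA, to an E2F site (TTTCCCGC, TTTCGCGC, TTTGCCGC or TTTGGCGC) or to a GATA site (AGATAA, its variant TGATAA, and the forms ending in G, namely AGATAG as well as TGATAG). Each run gives the 250 bases upstream of an annotated start, 5′ to 3′ on the strand of the gene, from RefSeq on GRCm38.p6. Tmpo (chr10:91171620-91171869, minus strand) and Banf1 (chr19:5366877-5367126, minus strand) lay lower in transgenic libraries, while Lbr (chr1:181842402-181842651, minus strand) and Sun2 (chr15:79742537-79742786, minus strand) did not.
Tmpo: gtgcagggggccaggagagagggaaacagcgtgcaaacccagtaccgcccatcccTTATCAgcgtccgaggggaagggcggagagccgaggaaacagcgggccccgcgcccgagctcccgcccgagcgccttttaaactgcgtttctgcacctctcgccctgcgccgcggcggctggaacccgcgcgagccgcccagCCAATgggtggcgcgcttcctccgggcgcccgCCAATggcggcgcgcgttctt
Banf1: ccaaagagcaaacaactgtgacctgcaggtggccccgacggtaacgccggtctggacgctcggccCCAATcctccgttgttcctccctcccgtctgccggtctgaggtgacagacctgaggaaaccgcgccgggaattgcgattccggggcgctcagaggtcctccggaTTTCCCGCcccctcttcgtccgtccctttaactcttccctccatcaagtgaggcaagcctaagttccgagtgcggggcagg
Lbr: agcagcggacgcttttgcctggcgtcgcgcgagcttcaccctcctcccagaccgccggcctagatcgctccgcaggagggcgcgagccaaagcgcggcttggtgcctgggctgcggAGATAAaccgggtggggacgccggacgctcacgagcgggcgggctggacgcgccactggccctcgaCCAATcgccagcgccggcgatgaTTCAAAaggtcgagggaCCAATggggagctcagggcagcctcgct
Sun2: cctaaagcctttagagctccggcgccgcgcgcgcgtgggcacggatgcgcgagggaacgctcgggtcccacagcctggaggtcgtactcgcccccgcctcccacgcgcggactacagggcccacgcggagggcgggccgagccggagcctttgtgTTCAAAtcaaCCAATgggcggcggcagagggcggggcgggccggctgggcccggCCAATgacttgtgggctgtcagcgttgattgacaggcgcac

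The Tmpo, Lbr and Sun2 windows each held 2 copies of CCAAT, as did that of Sun1, against 10.1% of 32851 windows of the same length. One or more copies were present in 33.8% of windows. TTTGAA was found in the Lbr and Sun2 windows, 45 and 95 bases upstream of the start, and in 16.0% of all windows. Among the 9 genes with a window (Lmnb1 had none), the E2F site was found only in that of Banf1. It lay 81 bases upstream of the RefSeq start of the window, and such a site was present in 1.86% of all windows. A GATA site lay in the Tmpo and Lbr windows, 195 and 134 bases upstream, and in 26.5% of all windows. No 2 matches overlapped. The Banf1 window belongs to a start 292 bases downstream of that of its leading transcript in the GENCODE annotation. It lies inside the annotated gene (5364638 to 5367168) and downstream of the leading start, so its matches are not upstream of that start. The other 3 windows belong to starts within 37 bases of the leading ones. Those of Tmpo and Lbr also lie inside the annotated genes (91147571 to 91181315 and 181815335 to 181843046), which reach further upstream. A match is a description of the letters and does not show that a factor binds there.

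Between transgenic and wild-type cells, 3 of the 10 genes lay lower in every transgenic library than in any wild-type one: Lmnb1, Tmpo and Banf1. Lemd3 lay higher in the same sense, and the other 6 overlapped between groups. None of the 10 passed the threshold over all 14653 genes tested (Benjamini-Hochberg adjusted p under 0.05 in the quasi-likelihood test of edgeR), a call made for 0.0136% of genes. At an unadjusted p under 0.05, 3 of the 10 lay lower and 0 higher, against 7.7% lower and 5.71% higher of all genes. Groups of 3 libraries did not overlap for 18.8% of all genes, 10.1% with the transgenic group lower and 8.73% with it higher. Fold changes were below 0 for 6 of the 10 genes and for 49.8% of all genes. The median log2 fold change of the 10 genes was -0.08, beside 0.001 over all genes tested. With DESeq2 2 of the 10, Lmnb1 and Tmpo, were called lower, where 3.21% of its genes were.

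**Figure D2:**
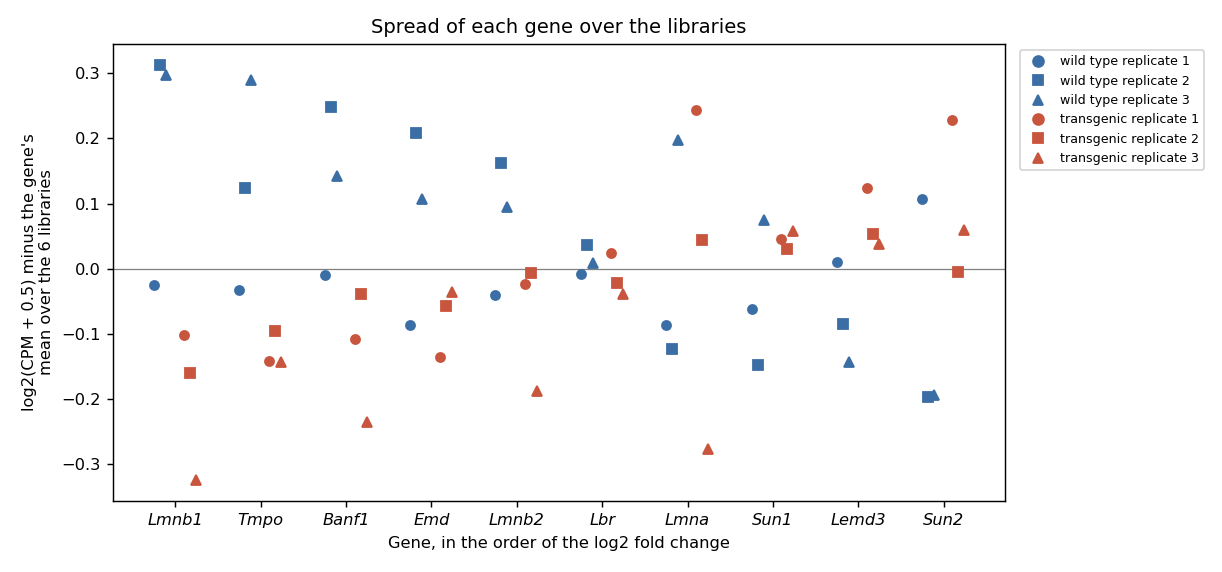
Level of each gene in each library (y axis, log2(CPM + 0.5) centred on the mean of the gene), with genes ordered by log2 fold change. Lmnb1 spans -0.32 to 0.31 and Lbr -0.04 to 0.04.

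Among the lamins, Lmnb1 (chromosome 18, 56707813 to 56753424, plus strand, mm10 coordinates) stood at 153, 194 and 191.5 CPM in wild type and at 145, 139 and 124 CPM in the transgenic libraries. All transgenic libraries were below all wild-type ones, with wild-type replicate 1 nearest to them. The means were 179 ± 22.8 and 136 ± 10.75 CPM (SD, n = 3 each), a log2 fold change of -0.40 ± 0.09 (SE), or 0.76-fold (edgeR, adjusted p = 0.159). The gene was called lower by DESeq2 (adjusted p = 0.00373), by edgeR on the unfiltered genes (adjusted p = 0.0460), by edgeR once Y-linked RNA was a covariate (adjusted p = 0.00996) or its 2 libraries were dropped (adjusted p = 0.0160), and by edgeR when wild-type replicate 1 was dropped (log2 fold change -0.50, adjusted p = 0.0129). Those fits called 3.21, 0.485, 1.4, 1.32 and 2.32% of their genes lower. Over all 15 alternatives Lmnb1 was lower in each, with adjusted p from 0.00373 to 0.503. The main transcript, Lmnb1-201, is listed at a log2 fold change of -0.40 with q = 0.149 in the authors' deposited table.

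Lmnb2 (chromosome 10, 80901203 to 80918245, minus strand), the other B-type lamin gene, was at 143, 164 and 157 CPM in wild type and at 145, 146 and 129 CPM in transgenic libraries. The groups overlapped, and its log2 fold change was -0.14 ± 0.07 (SE; edgeR, adjusted p = 0.4165), or -0.10 when wild-type replicate 2 was dropped and -0.09 when transgenic replicate 3 was. Within each library the level of Lmnb1 was 1.60, 1.69 and 1.57 times that of Lmnb2 in wild type and 1.40, 1.37 and 1.47 times in transgenic libraries, in FPKM. The ratio was lower in every transgenic library (exact two-sided permutation test, p = 0.1, the smallest that 3 against 3 libraries allow). Lmnb1 did not overlap between groups on its own, so the ratio is not separate evidence. How many other ratios of genes separate the groups was not counted. For Lmna (chromosome 3, 88480147 to 88509956, minus strand) the log2 fold change was 0.02 ± 0.36 (SE), with a 95% interval from -0.78 to 0.83 (edgeR), so at this depth neither a rise nor a fall of the size seen for Lmnb1 could be told from no change.

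Of the genes of inner membrane proteins that bind lamins and chromatin, Tmpo (chromosome 10, 91147571 to 91181315, minus strand) lay at 528, 589 and 660 CPM in wild type and at 489, 505 and 489 CPM in the transgenic libraries. The transgenic libraries were close together and below the wild-type range, of which replicate 1 was again the lowest. The log2 fold change was -0.26 ± 0.08 (SE; edgeR, adjusted p = 0.208). Tmpo was called lower by DESeq2 (adjusted p = 0.0268), by edgeR after dropping the 2 libraries with Y-linked RNA (log2 fold change -0.33, adjusted p = 0.0444), and by edgeR after dropping wild-type replicate 1 (log2 fold change -0.34, adjusted p = 0.0228), and was lower in all 15 alternatives, with adjusted p from 0.0228 to 0.543. Lbr (chromosome 1, 181815335 to 181843046, minus strand) was the steadiest of the 10, at 611, 630 and 618 CPM in wild type and 625, 605 and 598.5 CPM in transgenic libraries. Its log2 fold change was -0.02 ± 0.05 (SE; edgeR, adjusted p = 0.89), with a 95% interval from -0.13 to 0.09, and lay between -0.04 and -0.005 over the 15 alternatives. Within each library Lmnb1 amounted to 0.261, 0.290 and 0.300 of the FPKM of Lbr in wild type and to 0.227, 0.216 and 0.225 in transgenic libraries, and Tmpo to 0.7815, 0.822 and 0.946 and to 0.704, 0.738 and 0.733. Neither ratio overlapped between groups (exact two-sided permutation tests, p = 0.1 each, the smallest possible). Lmnb1 and Tmpo did not overlap on their own and Lbr hardly varied, so these ratios add no separate evidence. How many of all genes separate when divided by Lbr was not counted. The FPKM ratios of Sun2 to Sun1 and of Lbr to Lmna overlapped between groups (exact two-sided permutation tests, p = 0.9 each).

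Emd (X chromosome, 74254687 to 74261548, plus strand), which encodes the LEM protein emerin, was at 44.1, 54.2 and 50.5 CPM in wild type and at 42.6, 45.0 and 45.7 CPM in transgenic libraries. Wild-type replicate 1, one of the libraries with Y-linked RNA, fell within the transgenic range, and the log2 fold change was -0.16 ± 0.09 (SE; edgeR, adjusted p = 0.501). Transgenic replicate 3, the other library with Y-linked RNA, was the highest of its group. The estimate was -0.26 with both of these left out, -0.09 without wild-type replicate 2 and -0.10 with limma on FPKM. Lemd3 (chromosome 10, 120923413 to 120979332, minus strand), whose protein MAN1 restrains SMAD signalling at the membrane, was at 41.9, 39.2 and 37.6 CPM in wild type and at 45.3, 43.1 and 42.7 CPM in transgenic libraries. All transgenic values were above all wild-type values, yet the log2 fold change was 0.14 ± 0.08 (SE; edgeR, adjusted p = 0.475), and no alternative called it.

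Banf1 (chromosome 19, 5364638 to 5367168, minus strand) encodes the DNA-bridging protein that LEM domains bind and that helps to gather chromosomes into one nucleus after mitosis. It lay at 73.1, 87.55 and 81.3 CPM in wild type and at 68.3, 71.7 and 62.5 CPM in transgenic libraries. The groups did not overlap, and the log2 fold change was -0.26 ± 0.08 (SE; edgeR, adjusted p = 0.233). It was lower in all 15 alternatives and called in none, with adjusted p from 0.0574 to 0.622. On the opposite strand, Eif1ad shares 428 of the 1496 exonic bases of Banf1 and had 2806 to 3927 fragments a library, beside 2461 to 4069 for Banf1. No source used here says whether the counting used strand, so reads from the shared bases cannot be assigned with certainty.

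The SUN genes, whose proteins link the lamina through nesprins to the cytoskeleton, did not pass the threshold either. Sun2 (chromosome 15, 79724070 to 79742536, minus strand) was at 603, 489 and 490 CPM in wild type and at 656, 558 and 584 CPM in the transgenic libraries. Wild-type replicate 1 lay inside the transgenic range, so the groups overlapped, with a log2 fold change of 0.19 ± 0.09 (SE; edgeR, adjusted p = 0.433). It lay above 0 in all 15 alternatives and was called in none, the smallest adjusted p being 0.0600. Its estimate depended on single libraries, at 0.29 when wild-type replicate 1 was dropped and 0.12 when transgenic replicate 1 was, and it was 0.31 without the libraries with Y-linked RNA. Sun1 (chromosome 5, 139200637 to 139249840, plus strand) was at 60.6, 57.1 and 66.7 CPM in wild type and at 65.4, 64.7 and 65.9 CPM in transgenic libraries, with a log2 fold change of 0.09 ± 0.08 (SE; edgeR, adjusted p = 0.68), which was 0.04 without wild-type replicate 2, 0.15 without wild-type replicate 3 and 0.20 or 0.19 with limma on FPKM.

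**Figure D3:**
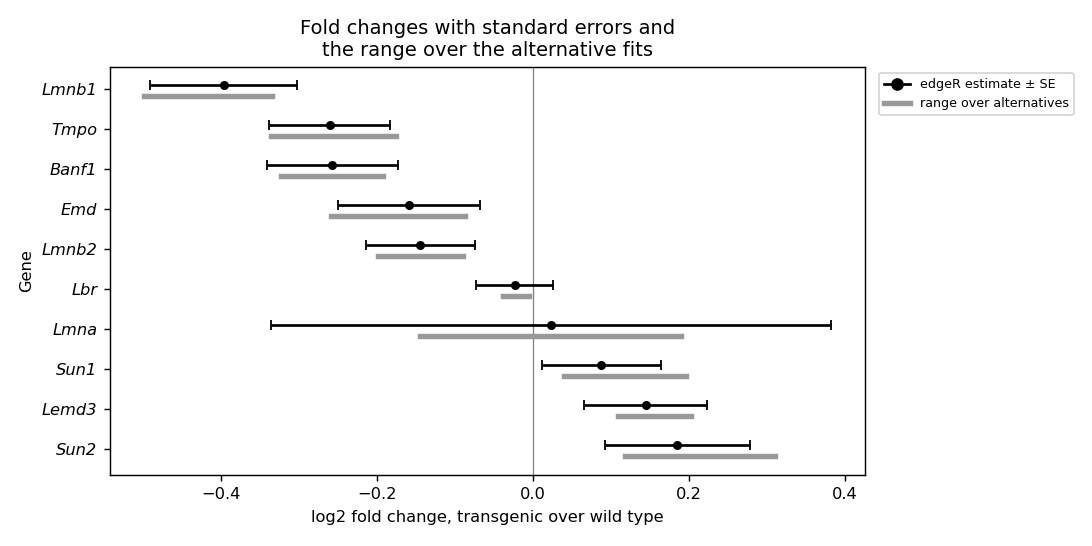
log2 fold change, transgenic over wild type (x axis), of each gene with its standard error (black, edgeR, 3 against 3 libraries) and the range of the estimate over 15 alternative fits, 13 for Lmna (grey). Lmnb1, Tmpo, Banf1, Emd, Lmnb2 and Lbr lie below 0 in every fit, Sun1, Lemd3 and Sun2 above it, and the error of Lmna, 0.36, is the widest.

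The transcripts behind these levels are estimates of the authors' software, and 0 of the transcripts of the 10 genes were called among 38358 tested (edgeR, adjusted p under 0.05; 0% of all). Of their 59 transcripts 36 passed the filter on low counts, and at an unadjusted p under 0.05 4 of these lay lower (Tmpo-202, Lmnb1-201, Emd-201 and Banf1-201) and 1 higher (Sun2-201), where 5.6% of all transcripts passed in either direction. Tmpo makes membrane-bound and soluble LAP2 proteins by splicing. Its leading transcript Tmpo-202, with 9 exons and a 452-residue reading frame, the length of the membrane protein LAP2 beta, was at 101, 109 and 123.2 FPKM in wild type and at 88.4, 87.3 and 89.6 FPKM in transgenic libraries. Its log2 fold change was -0.36 ± 0.09 (SE; edgeR over transcripts, adjusted p = 0.679), and DESeq2 called it lower, as it did 1.69% of its transcripts. Tmpo-201, with 4 exons and 693 residues, the length of soluble LAP2 alpha, was at 34.0, 39.0 and 43.7 FPKM in wild type and at 32.7, 35.6 and 34.7 FPKM in transgenic libraries, so its groups overlapped. Tmpo-202 held 61.6 ± 1.32% of the FPKM of the gene in wild type and 57.8 ± 2.43% in transgenic libraries (SD, n = 3 each; exact two-sided permutation test, p = 0.1, the smallest possible). Tmpo-201 held 21.6 ± 0.42% and 22.4 ± 0.23% (SD, n = 3 each; the same exact p). That smallest p was reached by 7 of the 59 transcripts, the others being Sun2-203, Sun2-208, Emd-202 and 2 minor forms of Sun2 and Sun1. How many of all transcripts reach it was not counted, so the 7 cannot be set against a background. Shares of the same gene also depend on each other.

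Lbr was measured from 1 transcript, so its steadiness does not depend on a division among forms. Lmnb1 came mostly from Lmnb1-201, which codes for 588 residues and held 94.5 ± 4.80% of its FPKM in wild type and 91.7 ± 5.51% in transgenic libraries (SD, n = 3 each). The rest was a retained-intron form. Banf1-201 held 96.1 ± 2.46% and 96.9 ± 1.96% (SD, n = 3 each) of Banf1.

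Sun2 was spread over 4 transcripts of at least 5% each. Sun2-201, coding for 731 residues, was at 59.2, 54.3 and 59.6 FPKM in wild type and at 68.3, 68.2 and 65.7 FPKM in transgenic libraries, without overlap, a log2 fold change of 0.22 ± 0.06 (SE; edgeR over transcripts, adjusted p = 0.694). Sun2-203, with 729 residues, took 27.2 ± 0.52% of Sun2 in wild type and 23.9 ± 2.22% in transgenic libraries (SD, n = 3 each; exact two-sided permutation test, p = 0.1, the smallest possible). Sun2-208, a retained-intron form, took 11.9 ± 1.77% and 13.9 ± 0.57% (SD, n = 3 each; exact permutation test, p = 0.1).

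Sun1 had 21 listed transcripts, of which 6 reached 5% and Sun1-201, coding for 913 residues, held 51.1 ± 8.96% in wild type and 44.9 ± 0.64% in transgenic libraries (SD, n = 3 each). For Lemd3 the division was unstable. Lemd3-201 was at 0.000825, 0.0016 and 2.80 FPKM in wild type and at 0, 4.80 and 5.59 FPKM in transgenic libraries, while the gene total varied little. Emd-201, the 259-residue emerin form, held 89.7 ± 4.17% of Emd in wild type and 81.6 ± 5.52% in transgenic libraries (SD, n = 3 each; exact two-sided permutation test, p = 0.2). Lmnb2-204 held 83.5 ± 5.62% and 87.7 ± 5.002% (SD, n = 3 each) of Lmnb2. For Lmna, Lmna-203, which codes for 574 residues, the length of lamin C, took 11.9 to 48.6 fragments in wild type and 6.38 to 63.3 in transgenic libraries. Lmna-201, with 665 residues, the length of prelamin A, took 0 to 9.03 fragments and 0 to 21.6, counts too few to order the forms.

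**Figure D4:**
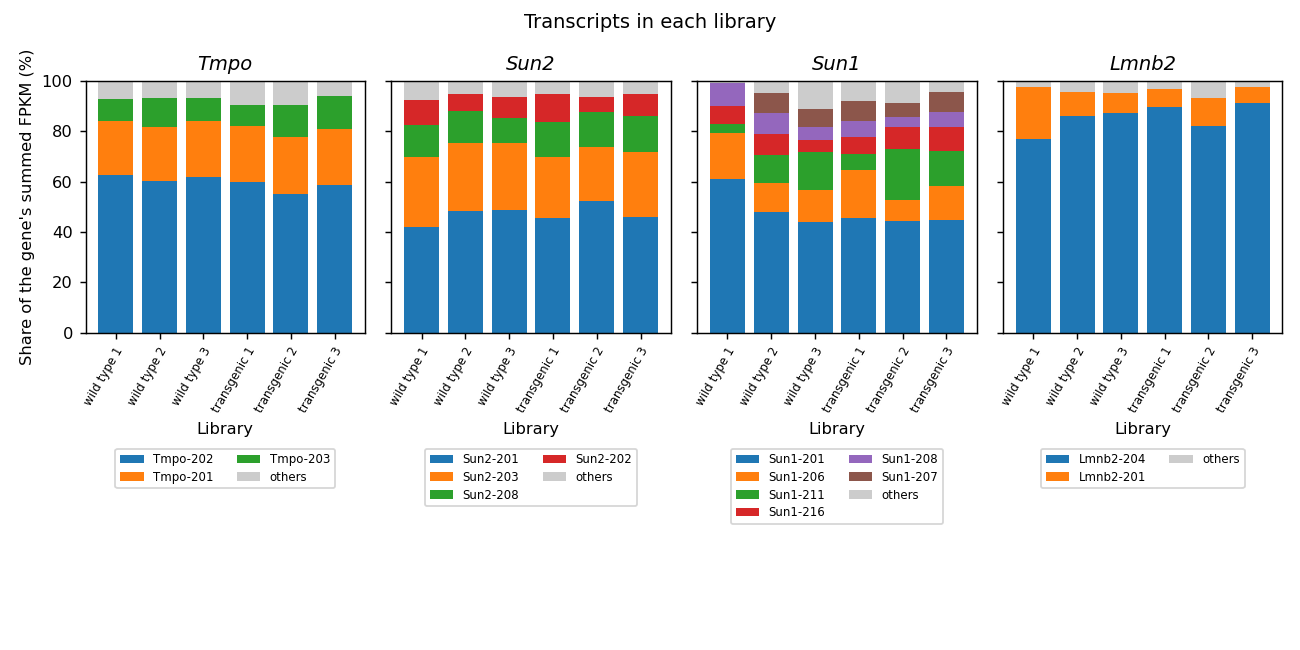
Share of the summed FPKM of Tmpo, Sun2, Sun1 and Lmnb2 (y axis, percent) held by each transcript of at least 5% in each of the 6 libraries (x axis), with the remainder in grey. Tmpo-202 falls between 55.2 and 62.8% and is lower in the 3 transgenic libraries.

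The nuclear envelope is taken apart and rebuilt in mitosis, and lists of genes of cell division are given beside Lmnb1, Tmpo and Banf1. All 20 genes of G2 and mitosis lay below 0, beside 49.8% of all genes. Of these, 19 did so at an unadjusted p under 0.05, beside 7.7% of all genes. Their median log2 fold change was -0.47 (0 called by edgeR). Ccnb2, cyclin B2, and Bub1b, a spindle checkpoint kinase, stood at log2 fold changes of -0.50 ± 0.09 and -0.47 ± 0.09 (SE). The 19 S phase genes tested were all below 0 too, all 19 at an unadjusted p under 0.05 (median -0.31, 0 called). Cdc45, part of the replicative helicase, and Rrm2, a subunit of ribonucleotide reductase, were at -0.49 ± 0.08 and -0.53 ± 0.09 (SE). As the mean of log2(CPM + 0.5) centred on the 6 libraries, the G2 and mitosis list was at -0.04, 0.38 and 0.39 in wild type and at -0.18, -0.10 and -0.43 in the transgenic libraries. Wild-type replicate 1 was the lowest wild-type library for this list and for Lmnb1, Tmpo and Banf1, and transgenic replicate 3 was the lowest of all libraries for the list, Lmnb1, Tmpo and Banf1, though in Tmpo it and transgenic replicate 1 were nearly equal. Lmnb2, at -0.19 to 0.16 on this scale, and Lbr had the same lowest libraries, Lbr within a far narrower span of -0.04 to 0.04. The part of cell division in the levels of the 3 genes was not tested.

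**Figure D5:**
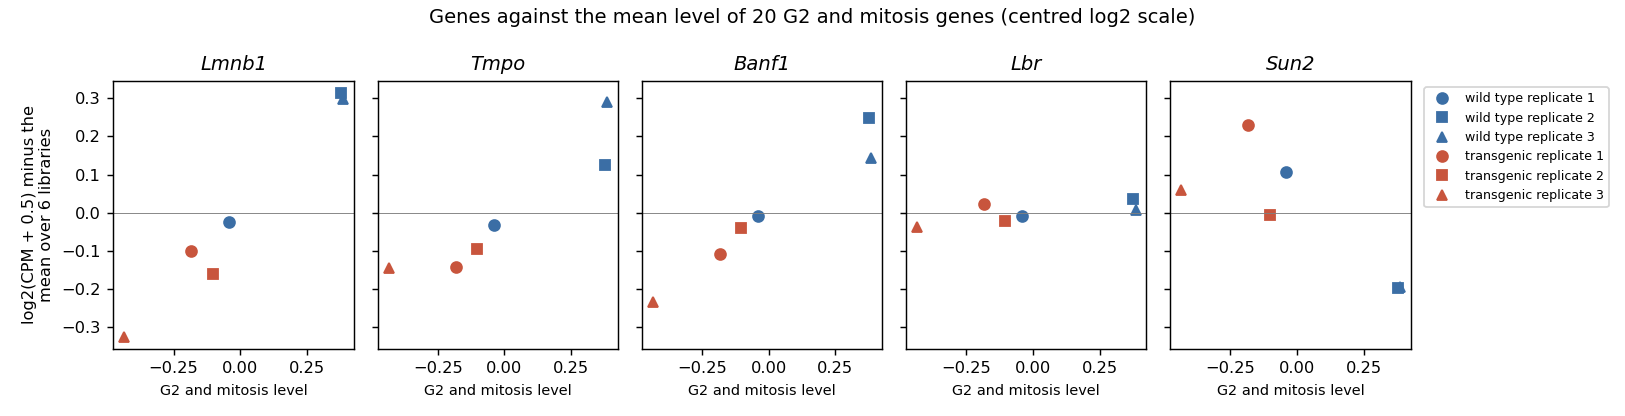
Level of Lmnb1, Tmpo, Banf1, Lbr and Sun2 (y axis) against the mean level of 20 G2 and mitosis genes (x axis) in each library, both as log2(CPM + 0.5) centred on the 6 libraries. Wild-type replicates 2 and 3 lie apart at 0.38 and 0.39 on the x axis, where Lmnb1, Tmpo and Banf1 are highest and Sun2 is lowest.

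Other gene lists moved with the groups as well. All 12 tested genes of stress and handling had positive fold changes, 10 at an unadjusted p under 0.05, beside 5.71% of all genes (median 0.42 on the log2 scale), Jund and Hspa1b at 0.48 ± 0.08 and 1.75 ± 0.39 (SE). Of the 12 early T cell markers 3 lay higher and 1 lower at an unadjusted p under 0.05, with Notch1 and Bcl11b at 0.19 ± 0.06 and 0.26 ± 0.08 (SE). All 7 markers of later thymocytes, among them Cd28 and Cd8b1 at -0.34 ± 0.07 and -1.15 ± 0.26 (SE), lay below 0, beside 49.8% of all genes. Their median was -0.89, and their summed level was 93.9 to 101.4 CPM in the wild-type group and 65.1 to 74.9 CPM in the transgenic group. The part of these in the lamina genes was not tested.

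The genes nearest to the most variable members in their course over the 6 libraries were found by the root mean square difference of centred log2(CPM + 0.5), among genes with a mean of at least 10 CPM. For Lmnb1 these were Incenp, a subunit of the chromosomal passenger complex of mitosis, at a distance of 0.0314, Fanci, a Fanconi anaemia repair gene, at 0.0316, and Tubb4b, a beta tubulin, at 0.0317. For Banf1 they were Rpa1, which coats single-stranded DNA, at 0.0219, Nxt1, an mRNA export cofactor, at 0.0276, and Adk, adenosine kinase, at 0.0280. For Lmna, with its few fragments, they were Bod1, Phyh and Id3 at 0.0524, 0.0619 and 0.0740.

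The wider envelope was examined through lists of genes. Of 28 tested genes of the nuclear pore, all 28 lay below 0 and 12 did so at an unadjusted p under 0.05, with a median log2 fold change of -0.14, beside 7.7% and 0.001 over all genes (0 called by edgeR). Nup62, of the central channel, was at 171.9, 172.5 and 171 CPM in wild type and at 149.9, 152 and 141.5 CPM in transgenic libraries, and Nup85, of the Y complex, had a log2 fold change of -0.25 ± 0.06 (SE; edgeR, adjusted p = 0.159 for each). Neither group overlapped the other for Nup62, as held for 18.8% of all genes, and its wild-type libraries differed by less than 2 CPM. The nuclear pore list as a whole was at 0.016, 0.089 and 0.112 in wild type, on the centred scale used for the G2 and mitosis list. Its transgenic values were -0.072, -0.032 and -0.113. Wild-type replicate 1 was thus the lowest of its group for the list, though not for Nup62. Of 16 other envelope genes, 6 lay below 0 and 3 at an unadjusted p under 0.05, with a median of 0.02. Ankle1, a LEM domain nuclease, lay at -0.44 ± 0.15 (SE) on the log2 scale and Syne3, a nesprin that binds SUN proteins, at -0.20 ± 0.09 (SE). Of 16 genes of lamin processing and envelope assembly, 8 lay below 0, with a median of 0.009. Vrk1, a kinase that releases BAF from chromatin in mitosis, was the 1 member at an unadjusted p under 0.05, at -0.18 ± 0.07 (SE), and Fntb, a subunit of the farnesyltransferase that modifies lamins, had -0.35 ± 0.16 (SE). Of 14 heterochromatin partners 8 lay below 0, with a median of -0.05. Suv39h1, a histone H3 lysine methyltransferase, and Cbx5, heterochromatin protein 1 alpha and a partner of LBR, lay at -0.21 ± 0.06 and -0.19 ± 0.06 (SE) on the log2 scale, the 2 members at an unadjusted p under 0.05. In these lists edgeR called 0 genes over all genes tested.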

How the data were processed

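RNA of DN3a thymocytes was depleted of ribosomal RNA before library preparation, per the labels' protocols. The submitters' processing notes name TopHat2, Cuffdiff and the mm10 build, while annotation and strandedness of the counting are not stated there. Per the file headers, the deposited table lists 100144 transcripts, each with its FPKM and its estimated count per library, and the authors' own log2 fold change, p-value and q-value per transcript. The table marks 466 transcripts of 197 symbols as failed estimates. These symbols, none of them among the 10 genes, were left out of the tests.

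Estimated counts were summed per symbol and rounded. The filterByExpr filter (10 fragments, total of 15) and TMM scaling were applied, and genes were tested with edgeR 4.0.16 (R 4.3.3) by the quasi-likelihood method, two-sided, without covariates, with Benjamini-Hochberg adjustment over 14653 genes and a threshold of 0.05. The same test was run on 38358 transcripts. It was tested on simulated data first. Standard errors derive from the F statistic, and intervals of 95% use its degrees of freedom. Alternatives were DESeq2 1.42.0, limma 3.58.1 on log2 FPKM with pseudocounts of 0.1 or 0.5 where mean FPKM reached 1, the unfiltered genes, median-of-ratios scaling, the replicate number as a block, a covariate for Y-linked RNA, the libraries with Y-linked RNA left out, the failed loci kept, and each library left out in turn. Transcript shares were compared by exact permutation over libraries. The members, lists and alternatives were chosen with earlier results of these data known. All 10 members and Gata3 are named, as are, from each other list, the 2 genes with the smallest p, transcripts with at least 5% of a gene and, for the 3 members that vary most over the libraries, the 3 nearest genes of at least 10 CPM. Lmna-201, Ptcra, Rag1, Cd4, Cd8a, Cd2, Cd5, Trac, Col1a1, Col1a2, Pdgfra, Pdgfrb, Pax5 and the overlapping gene Eif1ad were named after their values were seen. Gene positions were read from the GENCODE M21 annotation (GRCm38, equal to mm10), and the loci of all 10 genes overlapped those in the table. RefSeq promoter windows matched 9 of the 10 genes, and Lmnb1 was the gene without one. Per-sample columns of no labelled sample numbered 0.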

Additional observations from a re-analysis of the deposited data

How the results depend on the processing

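Over 148 refits of the 10 fold changes, 137 kept their direction and their side of the threshold, 8 gained a call, of Lmnb1 in 5 fits and Tmpo in 3, and 3 reversed. The 137 include the DESeq2 fit of Lmna, which kept its direction but had no adjusted p. All reversals were of Lmna, at -0.03, -0.05 and -0.15 when wild-type replicate 1, wild-type replicate 2 or transgenic replicate 1 was left out, in a leave-one-out range of -0.15 to 0.19, with 46 to 82 fragments a library. The number of the 10 genes called was 2 with DESeq2, 1 with no filter on low counts, 1 with the covariate for Y-linked RNA and 2 without the libraries with Y-linked RNA, and ran from 0 to 2 when 1 library was left out, the 2 being Lmnb1 and Tmpo without wild-type replicate 1. Over all genes 2 were called, against 497 with DESeq2, 127 with no filter, 4 with limma on log2(FPKM + 0.1), 256 with the covariate, 260 without the libraries with Y-linked RNA and 92 with the failed loci kept. Leaving out 1 library gave 1 to 498, the highest without wild-type replicate 1. The causes were not tested. DESeq2 called 1 transcript of the 10 genes, Tmpo-202, and no other fit called one. Transcripts were not refitted with limma. All 72 refits of the group difference in a leading transcript's share moved it by no more than the larger SD of the groups. That SD was wide for some, at 35.1 percentage points for Lmna-203, and reversals were not counted. The difference changed sign in at least 1 refit for Lmna-203, Lmnb1-201, Lmnb2-204, Sun2-201 and Banf1-201. For Lmna-203 it went from 9.9 to -4.5 percentage points without wild-type replicate 3, and for Lmnb2-204 from 4.2 to -0.87 without the libraries with Y-linked RNA. With the replicate block 14 genes were called and 0 of the 10. Correlations of same-numbered deviations were 0.0883, 0.0273 and -0.0018, so the numbers were not taken as pairs, and not every library correlated best with its own number.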
